A study of Arabidopsis thaliana with 9 samples.

Results

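Expansins and xyloglucan endotransglucosylase/hydrolases (XTHs) act on the wall that surrounds every plant cell. Expansins loosen the contact between cellulose and the surrounding matrix without cutting a polymer, and they work best in an acid wall. XTHs cut xyloglucan chains and, as a rule, rejoin the cut end to another chain, so that the wall can be extended, repaired or stiffened. Both are encoded by large families, whose members are switched on in different organs and by growth hormones, touch and stress. The genes described here are 44 loci of these families on the array, chosen by locus identifier: 19 of the expansin A family (EXPA), 2 of the expansin B family (EXPB) and 23 XTH genes. They are 44 of 25481 loci that could be matched to a probe.

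The plants were Arabidopsis thaliana of the ecotype Columbia (Col-0), 4 weeks old and grown in pots. The plants received 150 mM NaCl, 10 µM abscisic acid (ABA), the hormone of drought and salt responses, or, as the control, water, and were collected after 6 h. Each group had 3 one-colour Agilent arrays, 9 in all, on RNA from whole seedlings with roots and shoots. Per the methods, all seedlings under one condition were combined at harvest, and the 3 replicates are portions of that pool, so the p-values measure the spread between portions, which can be smaller than that between plants. In RNA from whole seedlings, a smaller share of one organ and less RNA per cell of that organ cannot be told apart. The NaCl arrays shared 1 slide and were scanned 235 days before the others, so an effect of salt and one of slide or scan cannot be told apart in any comparison with the NaCl group. The ABA arrays lay on 2 slides and the control arrays on another, all read on the same scan day. ABA and control thus shared no slide, and an effect of ABA and one of slide cannot be told apart either.

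Between 69.1% and 72.1% of the probes on an array were well above background, and no spot was saturated. Of 44 members, 39 had a probe that was well above background in all 3 replicates of some group, and these were tested together with all other such genes, 22804 in total. The members varied more between arrays of a group than genes did in general: the median standard deviation of a member was 0.79 on the log2 scale in NaCl plants, 0.59 in ABA plants and 0.44 in control plants, against 0.29, 0.22 and 0.26 for all genes in the same groups. A gene was called when its Benjamini-Hochberg adjusted p from limma was under 0.05 and its fold change at least 2. All levels below are log2 of the quantile-normalized signal, in the order of replicates 1, 2 and 3.

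The 5 members that were not tested include both root hair expansins. EXPA7 (AT1G12560) and EXPA18 (AT1G62980), which act in the growth of root hairs, were well above background on 1 of 3 NaCl arrays each and on no ABA or control array, and EXPA12 (AT3G15370) gave the same counts. XTH21 (AT2G18800) was above background on 1 NaCl array and 1 control array, and EXPA2 (AT5G05290), known from germinating seeds, on 2 ABA arrays and 1 control array. Most root hair markers were at the same limit: of 10 listed, 7 were not tested, among them the defining regulators RHD6 and RSL4. Of those tested, RHD2 and CSLD3 were well above background on all 9 arrays. These 5 members are left out of every count below.

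**Figure D1:**
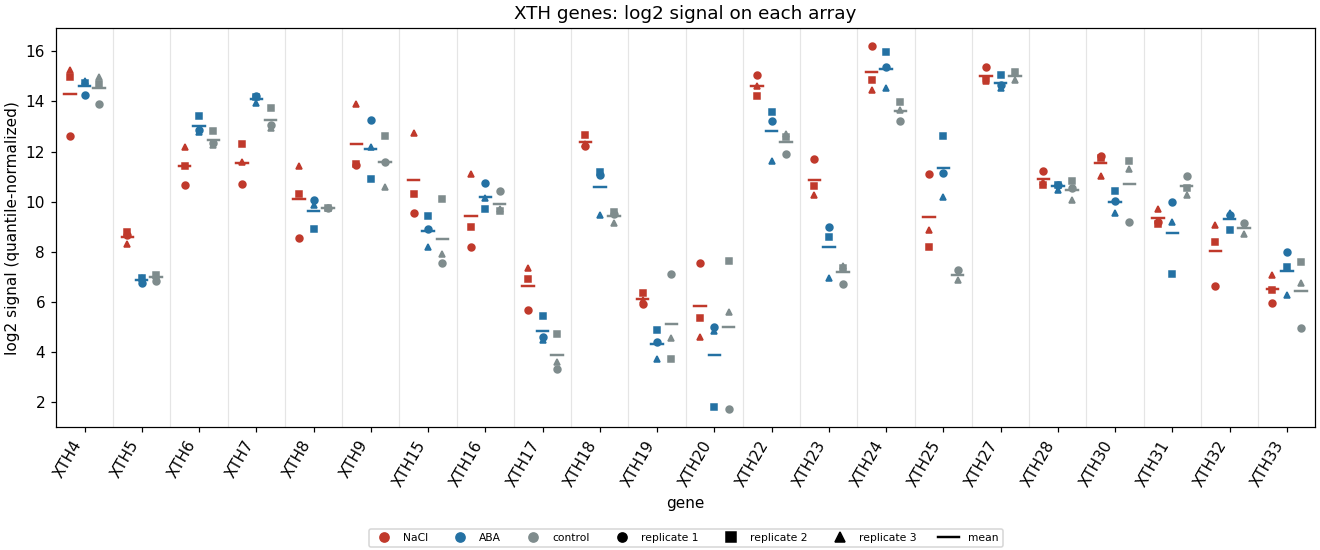
Log2 quantile-normalized signal of the 22 tested XTH genes (vertical axis) on each array, with NaCl, ABA and control arrays from left to right within a gene; symbols mark the replicate and bars the group mean of up to 3 arrays. For XTH5, XTH17, XTH18, XTH22, XTH23, XTH24 and XTH25 all NaCl arrays lie above all control arrays, while XTH20 spans more than the distance between any of its group means.

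The NaCl comparison asked which wall-modifying genes differed in NaCl plants after 6 h, against control arrays of another slide and scan day. Against control plants, 6 of 39 tested members rose in NaCl plants and all 6 were XTH genes (15.4% of the members, where 9.93% of all genes were called higher). Another 4 fell, 3 of them EXPA genes (10.3% of the members, against 13.3% of all genes called lower). At an unadjusted limma p under 0.05 with the same fold threshold, 8 were higher and 5 lower. In the authors' own normalized series table, in which NaCl and control columns have different distributions, the same fit gave 4 higher and 10 lower. The groups did not overlap for 13 of 39 members, or 33.3%, which is below the 52.9% of all genes. By family, 0 of 15 tested EXPA genes rose and 3 fell, neither of the 2 EXPB genes was called, and of 22 tested XTH genes 6 rose and 1 fell. Without adjustment the EXPA count stayed at 3 and the EXPB count at 0. The median log2 fold change was -0.35 for the EXPA genes and 0.75 for the XTH genes, beside -0.11 for all genes.

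Of the 6 members that rose, 5 lay in group 2 of the XTH family, a phylogenetic group that holds many genes known for quick responses to touch, hormones and stress. Of its 10 tested genes 5 rose with NaCl and 0 fell, where 9.93% of all genes were called higher and 13.3% lower. The median log2 fold change of the 10 was 2.27, beside -0.11 for all genes. NaCl and control arrays did not overlap for 60% of them, near the 52.9% of all genes. In group 1, 1 of 6 rose and 1 fell, with a median of 0.06. In group 3, which includes the xyloglucan hydrolases XTH31 and XTH32, 0 of 6 were called in either direction, also at an unadjusted limma p under 0.05, with a median of 0.05.

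XTH23 (AT4G25810, also named XTR6) had the largest fold change of the members that rose. Its levels were 11.70, 10.64 and 10.26 in NaCl plants, 8.98, 8.60 and 6.96 in ABA plants, and 6.74, 7.38 and 7.44 in control plants. Every NaCl array was above every other array, and NaCl plants exceeded control plants 12.8-fold (log2 fold change 3.68, SE 0.57, limma adjusted p = 0.0022). XTH18 (AT4G30280), a root-expressed XTH, gave 12.21, 12.67 and 12.31 in NaCl plants, 11.07, 11.18 and 9.47 in ABA plants, and 9.52, 9.59 and 9.14 in control plants. The NaCl arrays were again the highest, 7.90-fold above control (2.98, SE 0.43, limma adjusted p = 0.0017). XTH17 (AT1G65310) gave 5.69, 6.92 and 7.37 in NaCl plants, 4.62, 5.47 and 4.49 in ABA plants, and 3.32, 4.75 and 3.60 in control plants, where only 1 of 3 arrays was well above background. All its NaCl arrays exceeded all other arrays, and the log2 fold change over control was 2.77 (SE 0.53, limma adjusted p = 0.0052).

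XTH22 (AT5G57560), better known as TCH4, is a touch-induced gene whose enzyme joins xyloglucan chains. Its levels were 15.06, 14.20 and 14.60 in NaCl plants, 13.20, 13.59 and 11.64 in ABA plants, and 11.88, 12.58 and 12.71 in control plants. NaCl arrays lay above all others, at 2.23 over control (SE 0.50, limma adjusted p = 0.0100), while ABA and control arrays overlapped. XTH5 (AT5G13870), the only group 1 gene that rose, had the smallest standard error of the members that rose: 8.69, 8.80 and 8.30 in NaCl plants, 6.78, 6.94 and 6.98 in ABA plants, and 6.85, 7.07 and 7.04 in control plants. Its log2 fold change with NaCl was 1.61 (SE 0.17, limma adjusted p = 0.00047). Very similar XTH genes may share probe signal, and the probes were not checked for this, so the split among XTH17, XTH18, XTH19 and XTH20, or between XTH22 and XTH23, is uncertain.

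XTH24 (AT4G30270, also MERI5) was near the threshold. It gave 16.21, 14.87 and 14.45 in NaCl plants, 15.35, 15.95 and 14.52 in ABA plants, and 13.21, 13.96 and 13.64 in control plants. Both treated groups stood above control without overlap, by 1.57 with NaCl (SE 0.51, limma adjusted p = 0.040) and by 1.67 with ABA (SE 0.51, limma adjusted p = 0.136), and only the NaCl call passed. Its 5 probes gave log2 differences from control of 1.05 to 1.80 for NaCl and 1.67 to 2.03 for ABA. The NaCl call was kept in 3 of 9 fits with 1 array left out, and the limma adjusted p was 0.098 without NaCl replicate 1, 0.070 without NaCl replicate 2, 0.060 without ABA replicate 1, and 0.118, 0.058 and 0.085 without control replicates 1, 2 and 3.

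Among the members that fell, EXPA16 (AT3G55500) changed most. Its levels were 2.78, 3.68 and 3.31 in NaCl plants, 7.21, 9.22 and 8.07 in ABA plants, and 7.70, 7.04 and 4.45 in control plants. No NaCl array was well above background for it, so the level there is a bound, and NaCl plants were at least 6.45-fold lower than control plants (fitted log2 fold change -3.14, SE 0.84, limma adjusted p = 0.020). A second EXPA16 probe gave -2.44. The call was lost without NaCl replicate 1 (limma adjusted p = 0.059), without control replicate 1 (0.061) and without control replicate 2 (0.060).

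EXPA4 (AT2G39700) had 3.43, 4.35 and 4.44 in NaCl plants, 5.84, 5.91 and 5.60 in ABA plants, and 6.10, 6.32 and 5.02 in control plants. All NaCl arrays were below all others, 1 of them not well above background, and the log2 fold change was -1.74 (SE 0.38, limma adjusted p = 0.0094). XTH7 (AT4G37800), a gene of group 1, gave 10.72, 12.30 and 11.60 in NaCl plants, 14.21, 14.18 and 13.94 in ABA plants, and 13.06, 13.74 and 12.96 in control plants. The 3 groups did not overlap, with NaCl the lowest and ABA the highest, and NaCl against control was -1.71 (SE 0.39, limma adjusted p = 0.010). EXPA13 (AT3G03220) lay just past the fold threshold, at 7.70, 8.10 and 8.78 in NaCl plants, 8.62, 8.07 and 8.64 in ABA plants, and 9.33, 9.51 and 8.97 in control plants. Both treated groups were below control; NaCl differed by -1.08 (SE 0.30, limma adjusted p = 0.024), ABA by -0.83 (limma adjusted p = 0.195). The EXPA13 call with NaCl was lost without NaCl replicate 1 (limma adjusted p = 0.067) or 2 (0.072) and without control replicate 1 (0.064) or 2 (0.072).

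**Figure D2:**
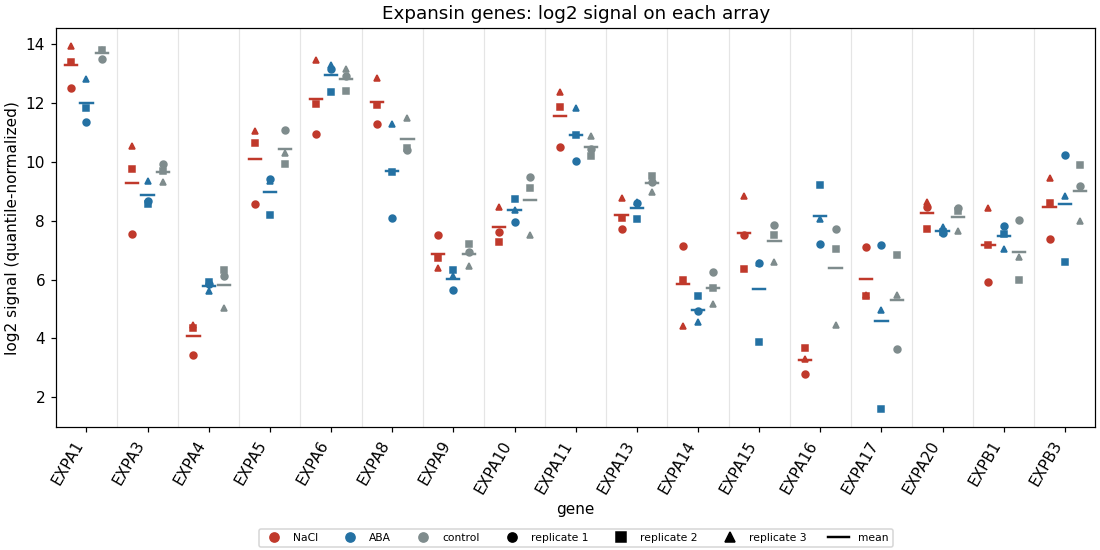
Log2 quantile-normalized signal of the 17 tested expansin genes (vertical axis) on each array, with NaCl, ABA and control arrays from left to right within a gene; symbols mark the replicate and bars the mean of 3 arrays. NaCl arrays lie below all control arrays for EXPA4, EXPA13 and EXPA16, ABA arrays lie below all control arrays for EXPA1, EXPA5, EXPA9, EXPA13 and EXPA15, and most other genes overlap.

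A few XTH genes had large fold changes with NaCl but did not pass the test. XTH15 (AT4G14130, also XTR7), a gene of shade and hypocotyl growth responses, gave 9.54, 10.30 and 12.72 in NaCl plants and 7.54, 10.12 and 7.91 in control plants (log2 fold change 2.33, SE 0.93, limma adjusted p = 0.078). Without control replicate 2, its highest control array, the difference was 3.12 (limma adjusted p = 0.033). XTH6 (AT5G65730) gave 10.68, 11.44 and 12.19 in NaCl plants and 12.32, 12.83 and 12.24 in control plants, without overlap (-1.03, SE 0.38, limma adjusted p = 0.060). Without NaCl replicate 3, XTH6 was -1.41 (limma adjusted p = 0.013). XTH31 (AT3G44990) was also below control on every NaCl array (-1.28, SE 0.65, limma adjusted p = 0.150). The remaining 25 uncalled values, with XTH25 given below, ran from -0.91 for EXPA10 to 1.25 for EXPA8.

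Members that neighbour each other on the chromosome did not all share a call. XTH24, XTH18 and XTH19 follow each other with 0 protein-coding genes in between, and so do XTH25 and XTH22. XTH24 and XTH18 rose with NaCl, while XTH19 (AT4G30290) had 5.94, 6.37 and 6.08 in NaCl plants, 4.41, 4.91 and 3.73 in ABA plants, and 7.13, 3.73 and 4.57 in control plants (0.99, SE 0.77, limma adjusted p = 0.335). Control replicate 1 was the highest XTH19 array of all, and without it NaCl exceeded control by 1.98 (limma adjusted p = 0.011). XTH19 was well above background on 3 NaCl, 2 ABA and 2 control arrays, so it was tested only through the NaCl arrays.

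**Figure D3:**
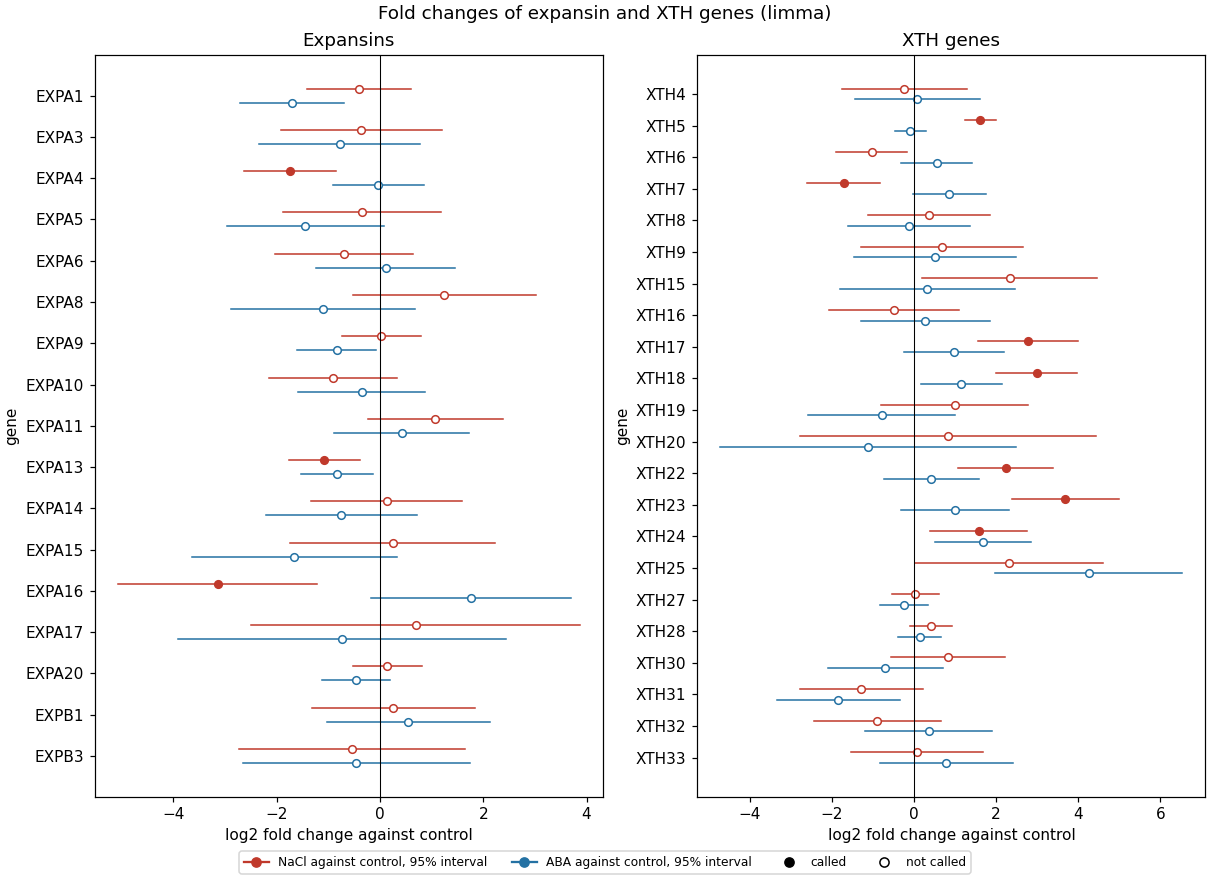
Log2 fold change (horizontal axis) of each tested expansin (left panel) and XTH gene (right panel) in NaCl and in ABA plants against control, from limma, with 95% intervals; filled points passed both thresholds. Filled points occur for NaCl only, 3 lower among the expansins and 6 higher and 1 lower among the XTH genes, and the ABA intervals of EXPA1, EXPA9, EXPA13, XTH18, XTH24, XTH25 and XTH31 do not reach 0 although these genes were not called.

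The ABA comparison asked which of these genes differed in ABA plants, against the same 3 control arrays, which lay on another slide. No member was called: 0 of 39 were higher and 0 lower, where 0.842% of all genes were called higher and 0.732% lower with limma, so that a count of 0 among 39 is near the background. At an unadjusted limma p under 0.05 with the same fold threshold, 3 were higher (XTH18, XTH24 and XTH25) and 2 lower (EXPA1 and XTH31), whereas the unadjusted t-test of the methods called XTH24 and XTH25 higher (2 members) and 0 lower. The groups did not overlap for 9 of 39 members, or 23.1%, beside 29.6% of all genes. With slide as a random block, limma called 4 higher (EXPA16, XTH18, XTH24 and XTH25) and 3 lower (EXPA1, EXPA5 and XTH31). No slide held arrays of more than 1 group, so that fit cannot remove a slide effect. Its estimated correlation within slides was -0.34, and a negative value makes the standard errors of group means smaller.

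XTH25 (AT5G57550, also XTR3) had the largest difference of any member with ABA. Its levels were 11.11, 8.19 and 8.87 in NaCl plants, 11.14, 12.64 and 10.20 in ABA plants, and 7.29 and 6.87 on the 2 control arrays with a usable spot. Both treated groups were above control, ABA by 4.25 (SE 0.97, limma adjusted p = 0.079) and NaCl by 2.31 (SE 0.97, limma adjusted p = 0.098). Leaving out NaCl replicate 1 put the ABA difference past the threshold (limma adjusted p = 0.047). XTH18, described above, differed by 1.15 with ABA (SE 0.43, limma adjusted p = 0.203). ABA replicate 3 was its lowest ABA array, and without it the difference was 1.71 (limma adjusted p = 0.027).

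Of 15 tested EXPA genes, 12 had a log2 fold change below 0 with ABA, with a median of -0.75 beside -0.11 for all genes, and 0 of the 15 were called with limma (1 at an unadjusted p under 0.05, EXPA1). EXPA1 (AT1G69530), an expansin of guard cells and growing leaves, gave 12.53, 13.41 and 13.94 in NaCl plants, 11.36, 11.84 and 12.81 in ABA plants, and 13.50, 13.82 and 13.80 in control plants. ABA arrays were below all control arrays, by -1.71 (SE 0.44, limma adjusted p = 0.092), and NaCl arrays overlapped with control (-0.41, SE 0.44, limma adjusted p = 0.479). EXPA5 (AT3G29030) differed by -1.45 with ABA (limma adjusted p = 0.293), EXPA15 (AT2G03090) by -1.66 (0.355) and EXPA9 (AT5G02260) by -0.84 (0.231), each without overlap. EXPA16 had a positive value, 1.77 (SE 0.84, limma adjusted p = 0.310), with ABA and control arrays overlapping.

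Among the XTH genes the median with ABA was 0.34, and 15 of 22 values were above 0. XTH31, one of the group 3 hydrolases, gave 9.21, 9.09 and 9.70 in NaCl plants, 10.00, 7.11 and 9.21 in ABA plants, and 11.04, 10.55 and 10.26 in control plants. It was lower than control on every treated array, by -1.85 with ABA (SE 0.65, limma adjusted p = 0.184). XTH7 was higher with ABA on every ABA array (0.86, SE 0.39, limma adjusted p = 0.286). XTH30 (AT1G32170), whose loss has been linked to salt tolerance, gave 0.83 with NaCl (limma adjusted p = 0.304) and -0.70 with ABA (limma adjusted p = 0.591), with control replicate 1 at 9.18 and the other control arrays at 11.63 and 11.31. XTH27 (AT2G01850) and XTH28 (AT1G14720) had the narrowest intervals of group 3, from -0.55 to 0.61 and from -0.11 to 0.93 for NaCl, and from -0.82 to 0.33 and from -0.39 to 0.65 for ABA.

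NaCl and ABA plants were also compared directly. These groups lay on different slides and were scanned 235 days apart, so a difference between the responses and one of slide or scan cannot be told apart. Of 39 members, 4 were higher in ABA plants than in NaCl plants (10.3%, where 10.4% of all genes were) and 6 were lower (15.4%, where 9.81% of all genes were). This split depended on the scale: it was 7 higher and 1 lower with no scaling between arrays, and 9 higher and 1 lower in the authors' series table. The groups did not overlap for 14 members, or 35.9%, beside 52.1% of all genes. By the probe and setting used, EXPA16 was at least 22.0-fold higher in ABA plants (fitted log2 fold change 4.91, SE 0.84, limma adjusted p = 0.0040). Over the alternatives its fitted value ran from 1.92 to 5.65. Its second probe differed from control by 0.75 with ABA and by -2.44 with NaCl. Next came XTH7 at 2.57 (SE 0.39, limma adjusted p = 0.0025), EXPA4 at 1.71 (limma adjusted p = 0.012) and XTH6 at 1.58 (limma adjusted p = 0.014). Among the members that were lower in ABA plants, the log2 fold change was -2.68 for XTH23 (SE 0.57, limma adjusted p = 0.0090), -1.83 for XTH18 (0.013), -1.81 for XTH22 (0.025), -1.80 for XTH17 (0.031) and -1.70 for XTH5 (0.00055). XTH24 gave 0.10, with an interval of -1.08 to 1.27. This comparison uses the same NaCl arrays as NaCl against control.

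EXPA8 (AT2G40610) was lower in ABA plants than in NaCl plants (-2.35, SE 0.77, limma adjusted p = 0.046), though it was called in neither comparison with control. Its levels were 11.30, 11.95 and 12.84 in NaCl plants, 8.09, 9.67 and 11.28 in ABA plants, and 10.39, 10.48 and 11.49 in control plants. In 8 of 9 fits with 1 array left out it was no longer called, with the limma adjusted p between 0.054 (without NaCl replicate 1) and 0.117 (without NaCl replicate 3), and its dimmest probe gave NaCl and ABA differences from control of -0.06 and -0.51, where the probe used gave 1.25 and -1.11. XTH17 lost its call without NaCl replicate 2 (0.093) or 3 (0.080) and without ABA replicate 1 (0.088) or 3 (0.097), and XTH22 without NaCl replicate 1 (0.075) or 3 (0.051), again as limma adjusted p.

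**Figure D4:**
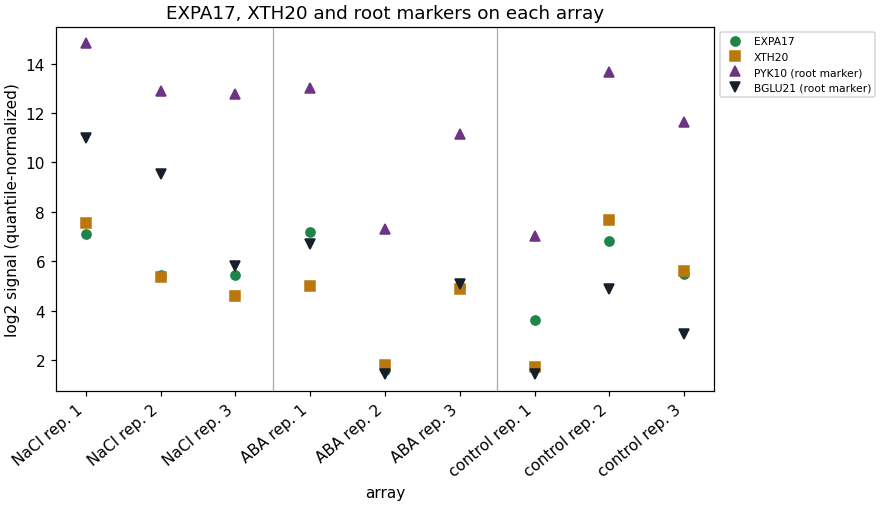
Log2 quantile-normalized signal (vertical axis) of EXPA17, XTH20 and the root markers PYK10 and BGLU21 on each of the 9 arrays (horizontal axis), with NaCl, ABA and control arrays from left to right. ABA replicate 2 and control replicate 1 are the lowest arrays for XTH20, PYK10 and BGLU21, and the lowest and second lowest arrays for EXPA17. Other root markers did not all share this pattern.

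A few members varied widely within a group, and their group means did not differ beyond that spread. EXPA17 (AT4G01630), an expansin of emerging lateral roots, gave 7.10, 5.45 and 5.46 in NaCl plants, 7.19, 1.59 and 4.97 in ABA plants, and 3.64, 6.83 and 5.49 in control plants. XTH20 (AT5G48070) gave 7.55, 5.37 and 4.59 in NaCl plants, 4.99, 1.81 and 4.86 in ABA plants, and 1.73, 7.66 and 5.62 in control plants. Each gene was well above background on 3 NaCl, 2 ABA and 2 control arrays, so both were tested only through the NaCl arrays. ABA replicate 2 and control replicate 1 were the lowest arrays of both genes. On the same pair of arrays PYK10, a glucosidase of the root, was at 7.32 and 7.01, while the other 7 arrays ranged from 11.17 to 14.82, and BGLU21, a related root gene, was at 1.42 and 1.45. Other root markers did not all follow. Control replicate 1 was the highest control array for CASP1 (7.07), CASP2 (6.89) and PER72 (6.39). ABA replicate 2 was the highest ABA array for CASP2 (5.80), SKOR (5.77) and TIP2;3 (5.51). It was the lowest for others, such as CASP1 (4.01), MYB36 (3.21) and PER72 (5.78). EXPA17, XTH20, PYK10 and BGLU21 were picked for display after their values were seen, and the part of root RNA in the values of EXPA17 and XTH20 was not tested.

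Some root, root hair and leaf markers also differed between the groups. With NaCl 9.93% of all genes were called higher and 13.3% lower, and the counts of these short lists are not read as results about an organ. Of 13 root markers 11 were tested, and PER72, well above background on all 9 arrays, rose with NaCl (2.39, limma adjusted p = 0.012). BGLU21 (5.64, limma adjusted p = 0.031) and MYB36 (2.87, limma adjusted p = 0.037) were also called higher, but they were tested only because the 3 NaCl arrays were well above background: BGLU21 was so on 2 ABA arrays and 1 control array, and MYB36 on 1 ABA array and 2 control arrays. The other tested root markers were not called with NaCl. Their log2 fold changes ran from -1.76 for NRT2.1 to 2.72 for PYK10, and SHR (-0.20) was also below 0. The log2 of the summed root marker signal ranged from 13.23 to 15.23 on NaCl arrays, from 11.12 to 13.36 on ABA arrays and from 10.97 to 13.93 on control arrays. Signals were summed on the linear scale, so the brightest markers weigh most. PYK10 alone ranged from 12.79 to 14.82 on NaCl arrays, from 7.32 to 13.00 on ABA arrays and from 7.01 to 13.67 on control arrays. Of the 3 tested root hair markers, RHD2, well above background on all 9 arrays, rose with NaCl (2.93, limma adjusted p = 0.011). COBL9 (3.30, limma adjusted p = 0.0037) was tested only through the NaCl arrays, being well above background on 3 of them, on 0 ABA arrays and on 1 control array. The summed root hair marker levels were 10.41 to 10.99 on NaCl arrays, 9.80 to 10.39 on ABA arrays and 10.28 to 10.44 on control arrays. Most of that sum was CSLD3, at 10.09 to 10.59 on NaCl arrays, which was not called with NaCl (0.11, limma adjusted p = 0.668). Of 11 leaf markers 4 fell with NaCl (RBCS1A, CA1, PRK and SBPASE) and 0 rose, with summed levels of 20.40 to 20.51 on NaCl arrays, 20.82 to 20.90 on ABA arrays and 20.64 to 20.89 on control arrays. LHCB2.1 (-0.90), GAPA (-0.80), PSAD1 (-0.78) and LHCA1 (-0.44) had a limma adjusted p under 0.05 but missed the fold threshold. All NaCl arrays lay below all control arrays for 8 leaf markers and above them for 1. Among all genes, 52.9% did not overlap. With ABA, 0 root, root hair and leaf markers were called with limma, also without adjustment of p. The part of these shifts in the NaCl results of the wall genes was not tested. As a check of the treatments, 5 of 7 treatment markers rose with NaCl (RD29B, RAB18, HAI1, ABI1 and NCED3, limma). NCED3 acts in ABA synthesis, and the others were listed as markers of the response to ABA. With ABA 3 of 7 rose (RD29B, HAI1 and ABI1, limma), where 0.842% of all genes were called higher. RD29A (-0.22) and RD26 (0.18) were not called with NaCl. With ABA, RAB18 (2.09), RD29A (1.64) and RD26 (1.41) were above control but not called, and NCED3 was at -0.75.

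The other members overlapped between NaCl and control arrays and between ABA and control arrays. Of the 2 EXPB genes, EXPB1 (AT2G20750) differed by 0.26 with NaCl and 0.55 with ABA, and EXPB3 (AT4G28250) by -0.54 and -0.46. EXPA6 (AT2G28950) gave -0.70 with NaCl and 0.11 with ABA, EXPA10 (AT1G26770), a gene of leaf and pedicel growth, -0.91 and -0.36, and EXPA11 (AT1G20190) 1.07 and 0.42. EXPA14 (AT5G56320) gave 0.13 and -0.75, and EXPA20 (AT4G38210) 0.14 and -0.47. In XTH group 1, XTH4 (AT2G06850) and XTH9 (AT4G03210), both known from stem growth, gave -0.24 and 0.68 with NaCl and 0.07 and 0.51 with ABA, and XTH8 (AT1G11545) gave 0.36 with NaCl and -0.13 with ABA. A second, dimmer XTH4 probe differed from control by -1.16 with NaCl and by -0.26 with ABA. XTH16 (AT3G23730) gave -0.49 with NaCl and 0.28 with ABA, XTH32 (AT2G36870) -0.90 and 0.36, and XTH33 (AT1G10550), an XTH tied to the plasma membrane, 0.07 and 0.78. The lowest limma adjusted p among these 13 genes was 0.166, for EXPA11 with NaCl.

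Within a group, the same array was often the lowest or the highest for many members of a family. NaCl replicate 1 was the lowest NaCl array for 11 of 17 tested expansins, or 64.7%, and NaCl replicate 3 the highest for 13, or 76.5%, beside 37.0% and 38.5% of all genes. ABA replicate 3 was the lowest ABA array for 14 of 22 XTH genes, or 63.6%, beside 27.6% of all genes. Control replicate 3 was the lowest control array for 10 of 17 expansins, or 58.8%, beside 40.4% of all genes. EXPA3 (AT2G37640) shows the spread in NaCl plants, at 7.54, 9.76 and 10.54, against 9.93, 9.70 and 9.30 in control plants (-0.36, SE 0.68, limma adjusted p = 0.693).

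The enzymes that build the wall, and others that modify it, were read from 6 further lists. With NaCl 9.93% of all genes were called higher and 13.3% lower, and counts as small as those of these lists are not read as results about a list. Of 10 genes of primary wall cellulose synthesis, 0 rose and 2 fell with NaCl, the synthase subunits CESA5 (-1.24, limma adjusted p = 0.0064) and CESA2 (-1.21, limma adjusted p = 0.0031). Of 5 secondary wall cellulose genes 0 were called with limma, also without adjustment of p. Of 14 genes that make or trim xyloglucan, the substrate of the XTH enzymes, 0 rose and 1 fell, the glucan synthase CSLC5 (-1.40, limma adjusted p = 0.011). The medians of these lists with NaCl were -0.43, 0.47 and -0.19.

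Pectin methylesterases remove methyl groups from pectin. Of 11 tested genes of pectin modification 8 were not called with NaCl; PME1 rose (1.01, limma adjusted p = 0.0019), while PME3 (-2.52, limma adjusted p = 0.0014) and PME41 (-1.68, limma adjusted p = 0.018) fell. PME3 was the only gene of the 6 lists called with ABA, with levels of 13.95, 14.13 and 14.66 in NaCl plants, 14.78, 14.78 and 15.54 in ABA plants, and 16.63 and 16.91 on the 2 usable control arrays (ABA against control -1.74, limma adjusted p = 0.047). Plasma membrane proton pumps acidify the wall in which expansins act. Of 10 genes of the AHA pump family, AHA4 of the root endodermis rose with NaCl (2.17, limma adjusted p = 0.0024) and AHA10 fell (-1.16, limma adjusted p = 0.023). The membrane in which each of these pumps acts was not examined. AHA9 was well above background on the 3 NaCl arrays and on no ABA or control array, so it was tested only through the NaCl arrays (at least 2.45-fold higher, limma adjusted p = 0.0077). Of 5 wall-sensing receptor kinases 2 fell with NaCl, the pectin-binding kinases WAK1 (-1.95, limma adjusted p = 0.0080) and WAK2 (-2.31, limma adjusted p = 0.0015).

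Between ABA and NaCl plants, 10.4% of all genes were called higher in ABA plants and 9.81% lower. No cellulose gene of either list was called with limma, also without adjustment of p, because the fold threshold of 2 was kept. CESA2 (0.94, limma adjusted p = 0.0062), CESA5 (0.85, limma adjusted p = 0.030) and COB (0.54, limma adjusted p = 0.025) missed only that threshold. Of the xyloglucan genes CSLC5 was higher in ABA plants (1.58, limma adjusted p = 0.0079) and the xylosyltransferase XXT1 lower (-1.60, limma adjusted p = 0.0075). Of the pectin genes PME41 (2.26, limma adjusted p = 0.0064) and PME35 (1.42, limma adjusted p = 0.045) were higher and PME1 lower (-1.18, limma adjusted p = 0.0013). Among the pumps, AHA11 was higher (1.78, limma adjusted p = 0.0038), AHA4 was lower (-2.14, limma adjusted p = 0.0032), and AHA9 was at least 2.26-fold lower (limma adjusted p = 0.012). The kinases WAK1 (2.37, limma adjusted p = 0.0032) and WAK2 (1.85, limma adjusted p = 0.0042) were higher in ABA plants.

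**Figure D5:**
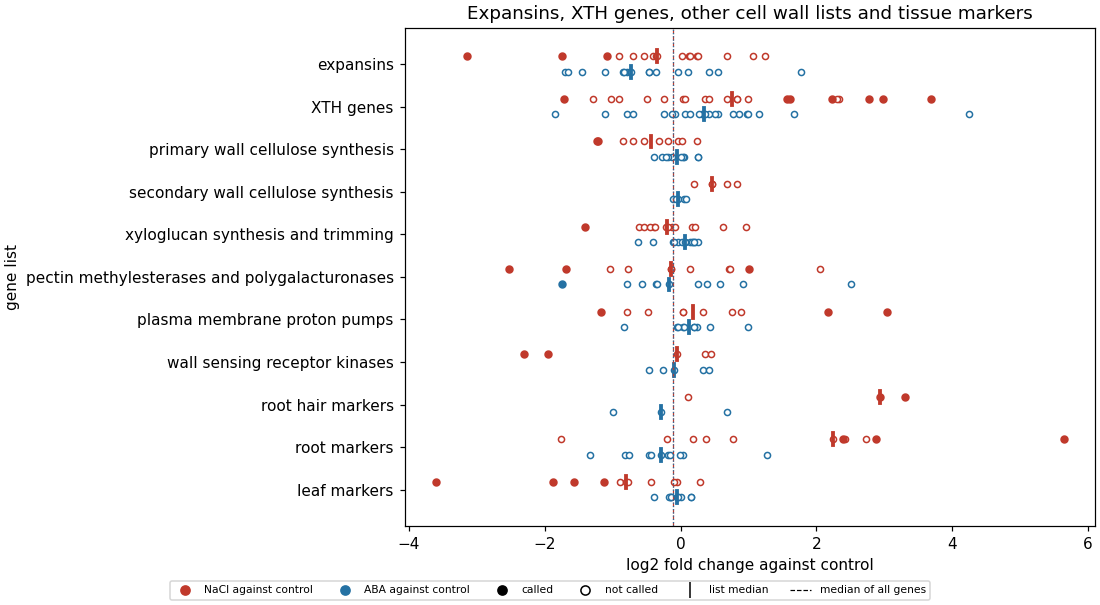
Log2 fold change against control (horizontal axis) of the tested genes of each list (rows), with NaCl above ABA in each row; filled points passed both thresholds, short bars are list medians, and the broken line is the median of all genes, -0.11 for either treatment. XTH genes spread furthest to the right of the wall lists. Filled points of the root and root hair rows with NaCl include BGLU21, MYB36 and COBL9, which were tested only through the NaCl arrays.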

How the data were processed

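The measurement was transcript abundance on one-colour Agilent arrays, 3 each for NaCl, ABA and control. Per the file headers, the authors made the intensity values with Agilent Feature Extraction 10.7.3.1, which subtracted the background, removed spatial trends and marked spots as well above background, saturated, non-uniform or outlying. The authors also deposited a table of log2 values after quantile normalization, whose NaCl columns follow another distribution than the rest, so it served only as an alternative.

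Marked spots (non-uniform or outlying) and control probes were removed. Of 43603 probes, 34483 were matched to 25481 loci through RefSeq accessions in the array annotation. Intensities were log2-transformed and quantile-normalized over 9 arrays. A probe stayed if well above background throughout 1 group or more, and the brightest such probe stood for its gene. Where a group was not well above background on any array, the fold is a bound, computed against the lowest signal that counted as well above background on each array. limma 3.58.1 (R 4.3.3, data.table version 1.17.8) fitted all 9 arrays at once without a block, with Benjamini-Hochberg adjustment over all 22804 genes, and was tested on simulated data. A plain exact permutation test of 3 arrays against 3 cannot go below p = 0.1. Normexp, an alternative, used median spot signals. Alternatives in scaling, background, filters, probes, tests and arrays were tried. Figures used Python 3.11.15, pandas 2.3.3 and matplotlib 3.10.9. The members and lists were chosen with earlier results of these data known. Named are all members and, from each cell wall list, up to 3 called genes with the largest change per comparison, besides markers. Cellulose genes that missed only the fold threshold between ABA and NaCl plants are also named. Sequences of probes, promoters and proteins were not analysed here.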

Additional observations from a re-analysis of the deposited data

How the results depend on the processing

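No call of a member turned its direction under any alternative; XTH18 rose with NaCl under every one. After Benjamini-Hochberg adjustment, the methods' t-test left 1 member higher and 0 lower with NaCl (limma 6 and 4), and 0 higher and 1 lower for ABA against NaCl (limma 4 and 6). Slide as a random block (estimated correlation -0.34, with 2 of 3 groups on 1 slide each) gave 10 higher with NaCl, 4 higher and 3 lower with ABA, and 12 lower for ABA against NaCl. No slide held arrays of more than 1 group, so this fit cannot remove a slide effect. With NaCl, normexp and the requirement of signal above background on all 9 arrays left 2 lower, and the authors' series table gave 10 lower, with XTH5 at 0.81 and XTH24 at 0.68 no longer called. For ABA against control, no scaling gave 3 higher, the methods' t-test without adjustment 2, array weights 1, and an unadjusted limma p, a rule chosen after seeing the data, 3 higher and 2 lower. For ABA against NaCl, no scaling gave 7 higher and 1 lower, 9 and 1 were found in the series table, and the filter on all 9 arrays 2 higher. The cause was not tested for these changes, beyond the change of scale itself: without scaling, the median of all genes was -0.30 with NaCl and 0.48 with ABA, and it was -0.95 with NaCl in the series table, beside -0.11 for each in the fit reported. Over all genes, the share of calls that were higher was 42.8% with NaCl (51.4% scaled to the 75th percentile, 32.1% unscaled and 8.76% in the series table), 53.5% with ABA (95.7% unscaled) and 51.6% for ABA against NaCl (90.8% and 92.7%).

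With 1 array left out, the members lower with NaCl numbered 2 to 7, those higher with ABA 0 to 1, and those higher in ABA than in NaCl plants 4 to 7. The count of 7 lower with NaCl came without NaCl replicate 3 and added EXPA6 (-1.37), XTH6 (-1.41) and XTH16 (-1.35), while 2 were left without NaCl replicate 1, control replicate 1 or control replicate 2. Without NaCl replicate 3, EXPA6 (1.48), XTH16 (1.62) and XTH32 (1.79) became higher in ABA than in NaCl plants. EXPA11 passed as higher with NaCl without NaCl replicate 1 (1.61), EXPA10 as lower without control replicate 3 (-1.50), and XTH31 as lower without ABA replicate 2 (-1.28). For ABA against NaCl, leaving out NaCl replicate 1 added EXPA1 (-1.68), EXPA3 (-1.29), EXPA5 (-1.85) and XTH25 (2.80), leaving out NaCl replicate 3 added EXPA9 (-1.12) and EXPA14 (-1.60), leaving out ABA replicate 3 added EXPA1 (-1.70), and leaving out control replicate 1 added XTH19 (-1.78) and XTH30 (-1.52).

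Replicate numbers are shared between groups but nothing ties same-numbered samples together: 2 of 9 same-number pairs correlated above 0.1, against 6 of 18 pairs of different number. The replicate block left 6 higher and 4 lower with NaCl and 0 with ABA, and gave 4 higher and 7 lower for ABA against NaCl. Over all genes it gave 124 higher and 82 lower with ABA, beside 192 and 167 without the block.

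Dim genes limit the reading: EXPA7, EXPA12, EXPA18, EXPA2 and XTH21 have no test, and EXPA16 with NaCl has only a bound. EXPA17, XTH19 and XTH20 were tested only through the NaCl arrays.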
